A study of Mus musculus with 48 samples.

Results

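In P19 cells, 3357 regions of open chromatin were called in the untreated state and in none of 3 other signalling states. Peaks of 4 lists, 1 per state, were merged wherever they overlapped by at least 1 bp, which gave 287329 regions. The regions described here were selected on a peak in the untreated list alone and on a highest fold enrichment of at least 2, and they make up 1.17% of all merged regions. They are called untreated-only regions below. Fold enrichment is the authors' ratio of read pileup over a peak to the background around it, so the untreated level and the lack of a called peak elsewhere are how these regions were chosen and not a result.

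ATAC-seq, in which a transposase inserts sequencing adapters into accessible DNA, was carried out on P19 cells, a mouse embryonic teratoma line. Untreated cells signal chronically through the NODAL and GDF3 that they secrete. In the SB-431542 state the pathway was blocked overnight with 10 µM of this type I receptor inhibitor, which was washed out and put back for 1 h, and in the 1 h Activin and 8 h Activin states the inhibitor was washed out and 20 ng/ml Activin was given for the stated time. The labels give 48 libraries, 12 per state and 6 for each of 2 biological replicates, from 100000 cells per reaction, but the lists hold 1 merged set of peaks per state. Every state was grown in medium with 10% serum, and the untreated state was the one without inhibitor or washes, so that chronic signalling and the absence of a medium change cannot be told apart here. With 1 list per state there is no spread between replicates, no value from another state for a region without a peak, and no test between states. A region without a peak in a list can still hold reads there.

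NODAL and Activin bind type I and type II receptors, which phosphorylate SMAD2 and SMAD3. These enter the nucleus with SMAD4 and reach their sites with the help of other DNA-binding proteins, among them FOXH1. Enhancers are short stretches of accessible DNA, mostly far from genes, at which such factors assemble, and a set of regions opened under the same conditions often shares the short words that a factor recognises.

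The 4 lists held 209212 to 234758 peaks. Depth was judged from the lowest local background that each list allows, and the untreated sample had 84.9% of the SB-431542 value, while 1 h Activin had 92.6% of it and 8 h Activin 79.0%. In the untreated list, promoters of 10 of 10 pluripotency markers (such as *Pou5f1*, *Sox2* and *Nanog*) carried a peak, and 9 of these, all but *Dppa4*, did so in every state. Of 5 liver markers, 0 had a promoter peak in any list, and in untreated cells 2 of 5 blood and 2 of 5 skeletal muscle markers had one.

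The regions are shown first as sequence, because the shares of short words in it are compared below. All sequences are the plus strand of mm10, read from RefSeq's GRCm38 assembly, in lower case with capitals for 7 words. These are the E-box words CACCTG and CAGCTG, the POU octamer ATTTGCAT, its variant ATGTAAAT, the forkhead (FOX) word GTAAACA, the nuclear receptor monomer site AAGGTCA and the AP-1 word TGANTCA, each sought on both strands. The first 3 are central stretches of regions among the 20 with the highest -log10 q that hold at least 1 of the words. They were picked for holding a word and do not show how frequent the words are. The most frequent of the 7, CACCTG, was held by 34.0% of untreated-only regions. Lower case does not mark repeats here, and the genome marks 76.5% of the bases of the *Ovol2* region as repeats.
Trpc4, chr3:54106921-54107220: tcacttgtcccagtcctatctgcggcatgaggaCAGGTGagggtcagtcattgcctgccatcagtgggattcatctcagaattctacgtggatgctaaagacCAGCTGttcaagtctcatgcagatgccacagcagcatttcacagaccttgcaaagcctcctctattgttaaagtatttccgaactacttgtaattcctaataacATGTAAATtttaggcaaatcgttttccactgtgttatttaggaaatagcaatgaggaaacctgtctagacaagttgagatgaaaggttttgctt
Ovol2, chr2:144323790-144324089: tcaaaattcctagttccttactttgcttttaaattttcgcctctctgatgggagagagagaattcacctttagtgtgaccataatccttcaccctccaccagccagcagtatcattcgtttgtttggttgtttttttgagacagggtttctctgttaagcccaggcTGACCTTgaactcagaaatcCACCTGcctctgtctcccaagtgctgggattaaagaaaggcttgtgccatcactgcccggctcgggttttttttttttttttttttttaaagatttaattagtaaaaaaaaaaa
Srsf6, chr2:162928173-162928472: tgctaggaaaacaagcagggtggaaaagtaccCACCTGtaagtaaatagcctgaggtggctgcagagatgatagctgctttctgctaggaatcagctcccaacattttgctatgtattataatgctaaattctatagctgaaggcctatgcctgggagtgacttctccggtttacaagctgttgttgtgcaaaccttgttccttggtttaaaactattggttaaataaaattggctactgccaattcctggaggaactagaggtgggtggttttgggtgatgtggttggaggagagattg

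The next 3 lie at promoters, and where a region ran into the first exon only the bases outside it are given.
Lifr, chr15:7140365-7140541: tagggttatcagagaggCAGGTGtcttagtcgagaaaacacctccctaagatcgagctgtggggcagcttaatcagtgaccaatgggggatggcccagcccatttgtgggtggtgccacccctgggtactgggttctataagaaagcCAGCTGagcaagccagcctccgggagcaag
Tnfrsf13b, chr11:61142318-61142483: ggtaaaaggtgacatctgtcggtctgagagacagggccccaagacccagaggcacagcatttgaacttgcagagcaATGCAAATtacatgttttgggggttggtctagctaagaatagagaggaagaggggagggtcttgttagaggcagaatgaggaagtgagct
Cpne4, chr9:104565952-104566152: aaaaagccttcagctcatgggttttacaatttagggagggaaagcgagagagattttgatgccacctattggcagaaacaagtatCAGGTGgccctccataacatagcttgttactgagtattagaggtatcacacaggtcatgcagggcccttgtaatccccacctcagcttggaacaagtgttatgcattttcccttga

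The last 4 lie within 50 kb of a start site of a gene on one of the pathway lists used below, and each holds at least 1 of the words.
Bmp7, chr2:172932207-172932425: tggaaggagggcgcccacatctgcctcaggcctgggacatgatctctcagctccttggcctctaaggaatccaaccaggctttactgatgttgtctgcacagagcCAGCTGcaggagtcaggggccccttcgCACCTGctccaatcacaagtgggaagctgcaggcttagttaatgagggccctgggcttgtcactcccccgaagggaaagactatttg
Dusp6, chr10:99254823-99255112: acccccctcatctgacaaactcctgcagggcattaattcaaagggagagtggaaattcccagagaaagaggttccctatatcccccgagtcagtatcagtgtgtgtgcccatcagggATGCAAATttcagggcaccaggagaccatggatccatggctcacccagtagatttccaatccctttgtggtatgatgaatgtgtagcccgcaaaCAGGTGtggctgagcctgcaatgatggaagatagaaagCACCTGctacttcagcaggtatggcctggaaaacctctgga
Esrrb, chr12:86382266-86382550: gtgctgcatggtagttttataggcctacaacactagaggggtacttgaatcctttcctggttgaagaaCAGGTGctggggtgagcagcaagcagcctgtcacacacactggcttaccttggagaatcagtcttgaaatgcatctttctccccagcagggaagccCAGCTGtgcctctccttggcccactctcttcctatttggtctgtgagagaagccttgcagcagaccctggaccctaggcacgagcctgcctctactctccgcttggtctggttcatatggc
Tfcp2l1, chr1:118655255-118655470: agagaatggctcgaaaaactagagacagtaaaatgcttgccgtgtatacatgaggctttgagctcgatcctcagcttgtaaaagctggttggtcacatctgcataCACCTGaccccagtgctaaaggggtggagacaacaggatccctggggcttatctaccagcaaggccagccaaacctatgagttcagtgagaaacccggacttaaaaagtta

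Untreated-only regions were narrow and weakly to moderately enriched. Their fold enrichment in untreated cells had a median of 2.18 and ran from 2.00 to 3.42, and the authors' -log10 q had a median of 5.71 and ran from 3.94 to 34.6. Their median width was 246 bp, with a range of 200 to 2112 bp, against 668 bp for all merged regions and 975 bp for the 162505 regions that all 4 lists share. Regions found in 1 other state alone by the same rule had similar median widths, of 229 bp for 3213 SB-431542-only regions, 227 bp for 1022 regions found at 1 h Activin alone and 243 bp for 2068 found at 8 h Activin alone. Their upper quartiles were 258, 269 and 302 bp, against 314 bp for untreated-only regions. Each untreated-only region consisted of 1 peak.

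The fold enrichment of 2 cut through a dense part of the distribution. A further 10398 regions had a peak in untreated cells alone with a fold enrichment under 2, and the values nearest the limit were 2.00 at *Unc5cl* and 2.0001 at *Scaf8* and *Inpp5d* inside it and 1.9999 at *Gm39429* and 1.9998 at *Otog* and *Ptbp2* outside it. Only 338 regions reached 2.5, and 27 reached 3.

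Most untreated-only regions stood on a local background close to the lowest of the list. The background, as a read pileup, was estimated from the fold enrichment and the -log10 p of each peak under the Poisson model of the peak caller, and its median was 23.8 with a range of 22.8 to 107. It was under 1.1 times the lowest value in 2927 regions, or 87.2%, and in 54.6% of all untreated peaks. The other end was small, as 66 regions, or 1.97%, had a background at least 2 times the lowest, against 10.6% of all untreated peaks, and 43 of these 66 lay within 5 kb of a transcription start site, against 203 of the other 3291. The plot of fold enrichment against background shows both kinds. The estimate uses the fold enrichment by which the regions were chosen. The shares by background therefore describe the chosen set and are not a separate result.

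**Figure D1:**
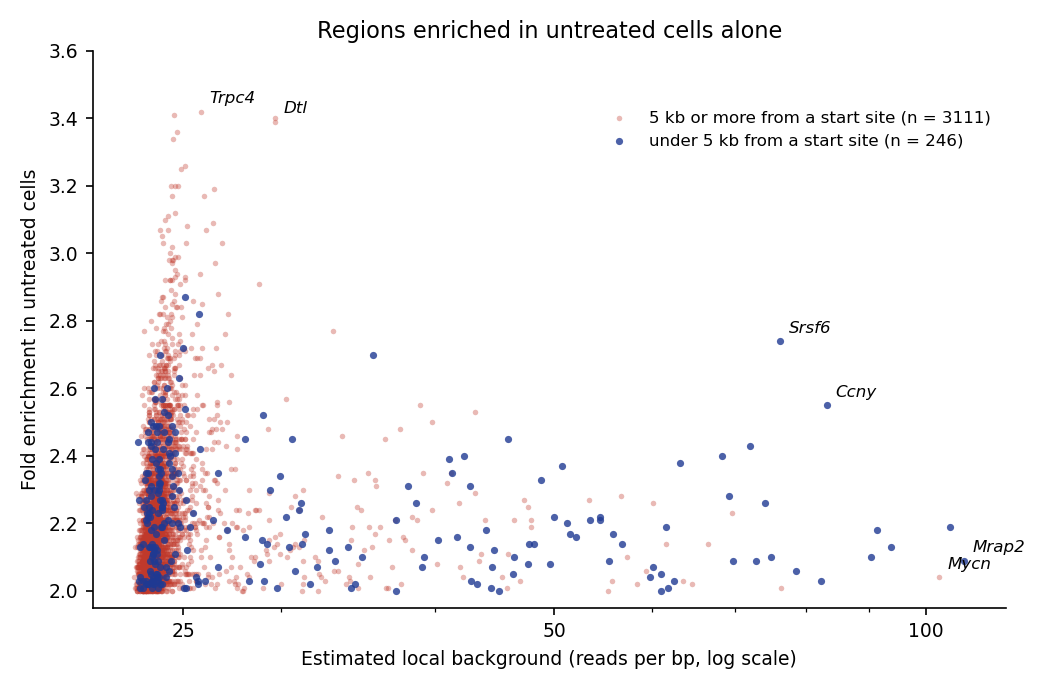
Fold enrichment in untreated cells against the estimated local background (read pileup, log axis) for the 3357 untreated-only regions. Points are single regions, with the 246 nearer than 5 kb to a start site in blue and the others in red. Most points stand at a background near 24, and the regions with a background above 60 are mostly blue.

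The 20 regions with the highest -log10 q divided along the same line. In 12 of them the background was 63.2 to 107 and the fold enrichment 2.04 to 2.74, and they lay 1.08 to 5.08 kb from a start site. The highest was 3.19 kb upstream of *Srsf6*, which encodes a splicing factor, at chr2:162928042-162928603, with a fold enrichment of 2.74 and a -log10 q of 34.6. Others were 3.55 kb into *Ccny*, the gene for a membrane-bound cyclin (2.55 and 30.7), 2.55 kb upstream of *Psme4*, the gene for a proteasome activator (2.43 and 23.2), and 5.08 kb upstream of *Mycn*, the gene for the N-MYC transcription factor (2.04 and 18.5). At a given fold enrichment a higher background gives a higher -log10 q by the caller's formula.

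In the remaining 8 of the 20 the background was 24.5 to 29.7 and the fold enrichment 3.19 to 3.42, and they lay 7.23 to 454 kb from a start site. The region with the highest fold enrichment of all, 3.42, was intergenic, 49.0 kb upstream of *Trpc4*, the gene for a cation channel, at chr3:54106845-54107296. An intergenic region 145 kb upstream of *Adam28*, which encodes a metalloproteinase, followed with 3.41, and an intronic one 7.47 kb from the start of *Plekhm3* with 3.40. An intergenic region 50.6 kb from the start of *Dtl*, the gene for a subunit of a ubiquitin ligase that acts in DNA replication, had 3.39. In *Ovol2*, which encodes a zinc finger repressor of mesenchymal genes, an intronic region at chr2:144323783-144324097 had 3.26, and one 39.5 kb upstream of *Tsku*, which encodes a secreted inhibitor of several signalling pathways, had 3.20. The tenth by fold enrichment, at 3.20, lay in an intron of the pseudogene *Macroh2a3*, 198 kb from *Myc*.

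Short words set untreated-only regions apart in description from the regions found in each other state alone. The E-box word CACCTG was held by 1140 of 3357 untreated-only regions, or 34.0% (95% Wilson interval 32.4 to 35.6, which covers counting error only, as do all intervals here). SB-431542-only regions held it in 16.5% of cases (15.2 to 17.8), regions seen after 1 h of Activin alone in 12.9% (11.0 to 15.1) and regions seen after 8 h of Activin alone in 19.4% (17.7 to 21.2). In 35993 merged regions with other patterns and a width inside the middle range of the untreated-only regions, from 213 to 314 bp, the share was 19.1% (18.7 to 19.5). These are called regions of like width, but the untreated-only shares set beside them are over regions of every width, up to 2112 bp. The part of width in whole-region shares was not tested. Among the proteins that bind this word are zinc finger repressors of the SNAI and ZEB families and dimers of basic helix-loop-helix E proteins. All merged regions, which are wider, held it in 43.3% of cases, but in the central 300 bp it was held by 20.2% of them and by 32.5% (30.9 to 34.1) of untreated-only regions. Regions found in untreated cells alone with a fold enrichment under 2 stood between these values in the central 300 bp, with 24.4% (23.6 to 25.3). It was looked for after the most frequent words of the regions had been seen, so its share is a description of this set.

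The word was not spread evenly through the regions. Within the 50 bp on either side of the centre it occurred 1.70 and 1.92 times per kb in untreated-only regions, while in the bins 450 to 500 bp from the centre it occurred 0.655 and 0.643 times per kb. Around the centre the highest value was 0.797 per kb in SB-431542-only regions, 0.587 and 0.890 in those of 1 h and 8 h Activin, and 0.829 in shared regions. Of the regions with the word, 929 held it outside the bases that the genome marks as repeats, which is 27.7% (26.2 to 29.2) of all untreated-only regions, against 9.59% to 14.2% in the 4 other sets. By fold enrichment the share was 32.3% (30.2 to 34.4) of 1872 regions between 2 and 2.2, 34.96% (32.3 to 37.8) of 1147 between 2.2 and 2.5 and 39.2% (34.0 to 44.8) of 311 between 2.5 and 3. Among the 27 regions above 3 it was 48.1%, with an interval of 30.7 to 66.0. The median width was larger in each higher range, at 238, 246, 271 and 355 bp, and the part of width in these shares was not tested. Under a fold enrichment of 2, where the median width was 334 bp, 31.7% of 10398 regions held the word.

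**Figure D2:**
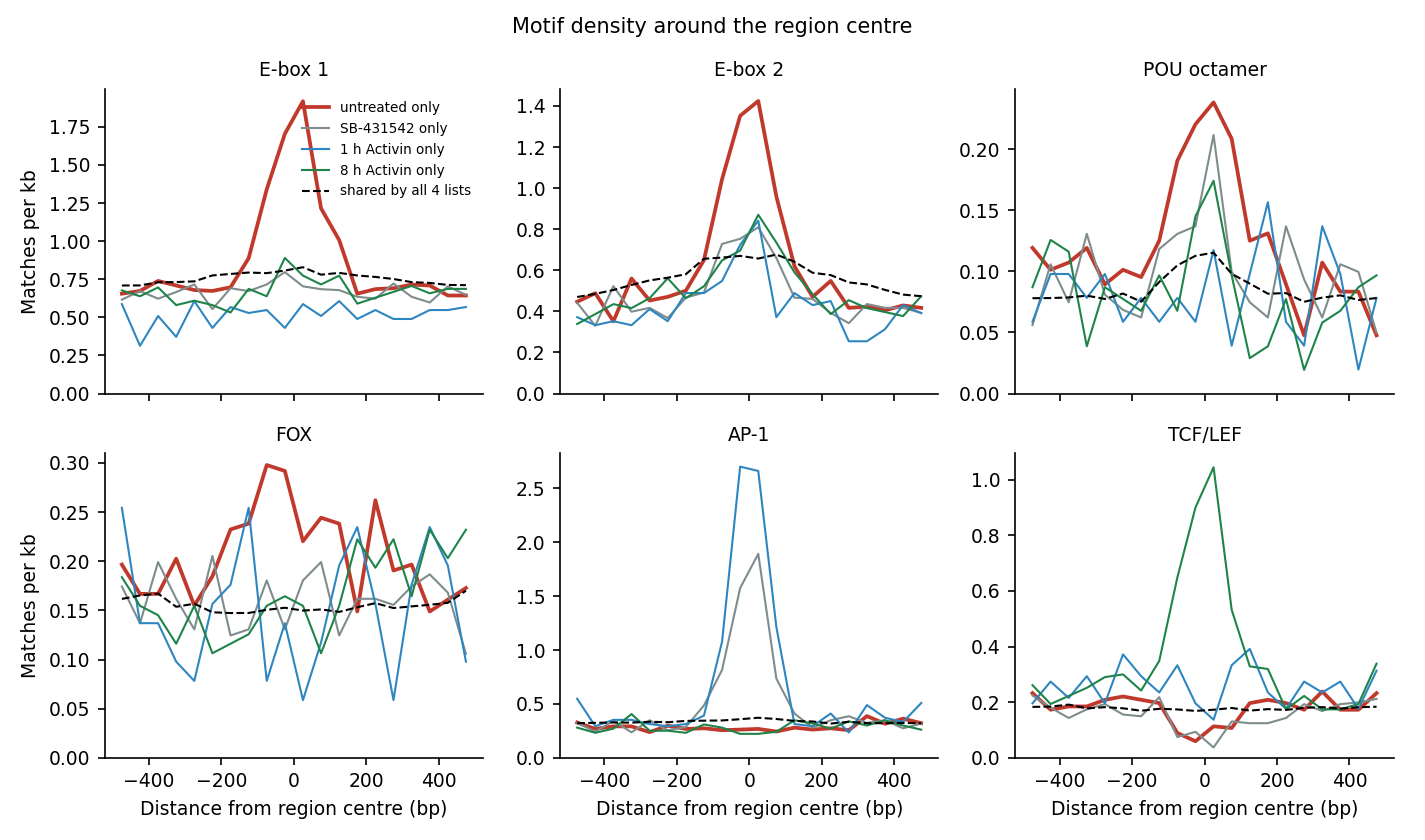
Matches per kb of 6 words in 50 bp bins, by distance from the region centre, for regions found in 1 state alone (red, untreated) and for the 162505 shared regions (dashed). E-box 1 is CACCTG and E-box 2 is CAGCTG, and both rise at the centre of the untreated-only regions, to 1.92 and 1.42 per kb, while AP-1 rises at 1 h Activin and with SB-431542 and TCF/LEF at 8 h Activin.

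CAGCTG, an E-box word bound by many other basic helix-loop-helix dimers, was held by 27.4% (25.9 to 28.9) of untreated-only regions. SB-431542-only regions held it in 16.03% of cases, those of 1 h and 8 h Activin in 15.2% and 17.4%, and regions of like width in 17.0%. At the centre it occurred 1.35 and 1.42 times per kb, against 0.696 to 0.870 per kb at the centre of regions found in another state alone.

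Octamer and forkhead words were also more frequent than in regions found in each other state alone and in regions of like width. The POU octamer, which POU5F1 and its relatives bind, was held by 195 untreated-only regions, or 5.81% (5.07 to 6.65). The share was 2.65% (2.15 to 3.26) in SB-431542-only regions and 2.36% in regions of like width. Regions of 1 h Activin alone gave 1.57% (0.966 to 2.53) and those of 8 h Activin alone 2.85% (2.22 to 3.66). Its variant ATGTAAAT, chosen after its values were seen, was held by 4.59% (3.93 to 5.35), against 1.59% to 1.84% in the other 3 states and 1.51% in regions of like width. The FOX word GTAAACA, the core site of forkhead proteins, was held by 257 regions, or 7.66% (6.80 to 8.60), against 3.62% in regions of like width. With SB-431542 it was held by 3.61% (3.02 to 4.31), and by 2.64% (1.82 to 3.82) and 3.97% (3.21 to 4.90) of the regions of 1 h and 8 h Activin. Regions found in untreated cells alone with a fold enrichment under 2, which are wider, held FOX in 6.66% of cases (6.19 to 7.15). They held the POU octamer in 4.41% (4.04 to 4.83). All merged regions, also wider, held FOX in 11.7% and the octamer in 6.83%. The octamer was held by 0 of the 27 untreated-only regions with a fold enrichment above 3. AAGGTCA, which ESRRB and other nuclear receptors bind as monomers, was held by 9.68% (8.73 to 10.7), a share close to the 10.3% (9.02 to 11.6) at 8 h Activin and above the 5.73% with SB-431542 and the 5.87% at 1 h Activin. The homeodomain word TAATTA was held by 7.27% (6.44 to 8.20), against 3.33% with SB-431542 and 6.26% and 5.90% in the regions of 1 h and 8 h Activin.

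AP-1, TEAD and TCF/LEF words were less frequent than in regions of like width. AP-1, the word of JUN and FOS dimers that serum and stress induce, was held by 7.60% (6.75 to 8.54) of untreated-only regions and by 6.58% (5.59 to 7.73) of those found at 8 h Activin alone. Among the 27 untreated-only regions with a fold enrichment above 3, the AP-1 share was 22.2% (10.6 to 40.8), against 6.36% to 9.42% in the ranges from 2 to 3. AP-1 was held by 24.4% (23.0 to 26.0) of SB-431542-only regions and by 36.5% (33.6 to 39.5) of those at 1 h Activin, the states collected 1 h after a wash, and by 16.7% of regions of like width. The part of the wash in these shares was not tested. The TEAD word ACATTCC, read by the partners of YAP, was held by 3.16% (2.62 to 3.81), against 8.19% and 8.22% in the same 2 states and 3.77% at 8 h Activin. The TCF/LEF word CTTTGAT, read by the nuclear effectors of WNT signalling, was held by 3.25% (2.70 to 3.90), against 17.5% (15.9 to 19.2) at 8 h Activin and 4.93% in regions of like width. Its density fell at the centre of the untreated-only regions, to 0.0596 and 0.113 per kb, from 0.232 per kb at 450 to 500 bp on both sides. SB-431542-only regions were alike in both respects, with a share of 2.21% and with 0.0934 and 0.0374 per kb at the centre against 0.224 and 0.212 at 450 to 500 bp.

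Words of the SMAD pathway did not all stand on the same side of regions of like width. The full palindrome GTCTAGAC was held by 8 of 3357 regions, or 0.238% (0.121 to 0.470), against 2.25% (1.504 to 3.35) at 1 h Activin and 0.336% in regions of like width. One of the 8 was the region upstream of *Trpc4* with the highest fold enrichment. CAGACAG, which holds the SMAD box AGAC, was held by 11.4% (10.4 to 12.5), between the 7.69% with SB-431542 and the 14.0% at 1 h Activin and above the 9.16% in regions of like width. The FOXH1 word AATCCACA was held by 1.67% (1.29 to 2.16), below the 3.10% (2.43 to 3.93) at 8 h Activin and above the 1.15% (1.05 to 1.27) in regions of like width.

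**Figure D3:**
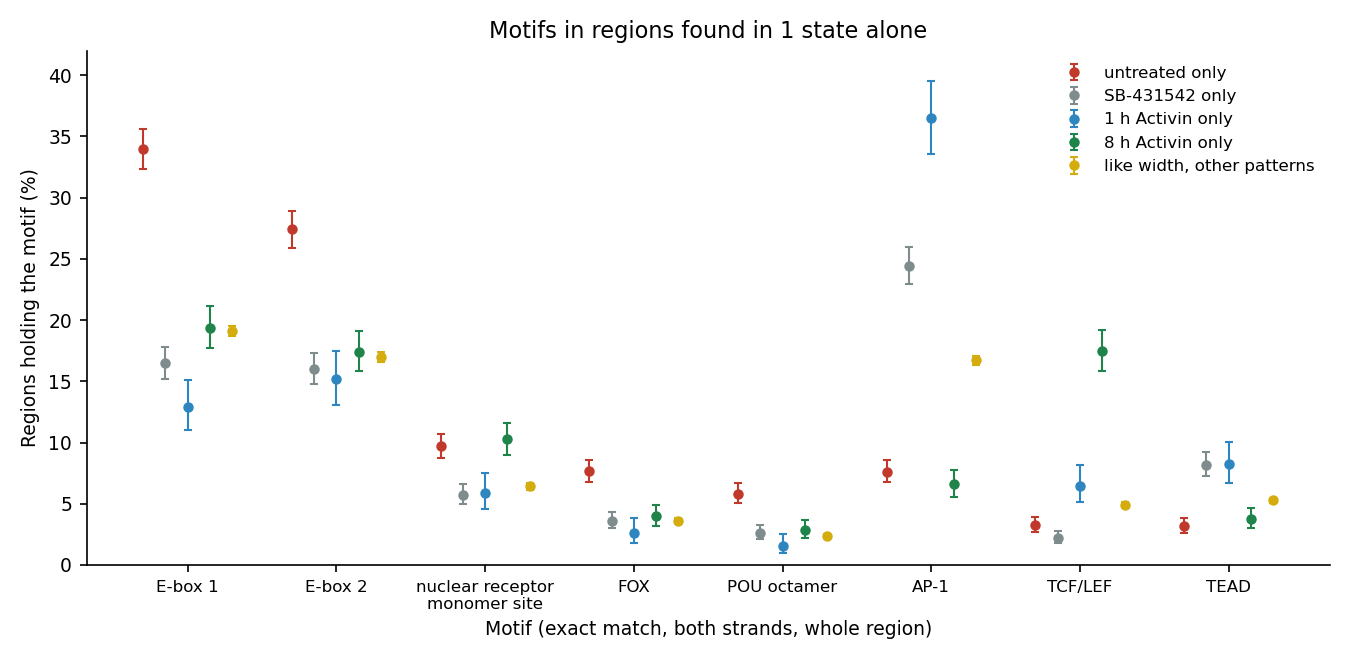
Share of regions that hold each of 8 words anywhere in the region, for regions found in 1 state alone and for 35993 other regions of like width, with bars for the 95% Wilson interval. The untreated-only regions stand highest for E-box 1 (CACCTG, 34.0%), E-box 2 (CAGCTG, 27.4%), FOX and the POU octamer, and low for AP-1, TCF/LEF and TEAD.

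At least 1 of 6 words (both E-boxes, both octamers, FOX or AAGGTCA) was present in 2071 untreated-only regions, or 61.7% (60.0 to 63.3). All 6 were words already more frequent here than in regions of like width. A higher joint share than theirs comes from that choice and is not a further result. The same 6 words covered 38.5% of SB-431542-only regions and 41.6% of regions of like width, and 33.7% and 45.1% of the regions of 1 h and 8 h Activin. They covered 59.4% (58.5 to 60.4) of the regions found in untreated cells alone with a fold enrichment under 2 and 71.1% of all merged regions, both of which are wider. Together in 1 region, CACCTG and the POU octamer were found in 86 untreated-only regions, or 2.56%, and CACCTG and FOX in 105, or 3.13%. In regions of like width the shares were 0.406% and 0.786%, and in all merged regions 3.76% and 6.56%. In regions found in untreated cells alone with a fold enrichment under 2 they were 1.61% and 2.40%. Each word of these pairs was already more frequent here than in regions of like width, so the joint shares are not a further result. Raising the minimum -log10 q to 5 in every list, which was chosen after seeing the data, gave 8889 regions without a peak of another list above that limit. Of these, 2260 are untreated-only regions described here, and the others overlap a peak of another list that lies under the limit. In the central 300 bp of these 8889, CACCTG was held by 28.7% (27.7 to 29.6), against 16.2% to 19.6% in regions found in another state alone under the same limit, and the POU octamer by 5.15% (4.71 to 5.63), against 2.11% to 2.96%.

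Few untreated-only regions lay at promoters. A promoter was taken as the stretch reaching 1000 bp upstream and 100 bp downstream of a start site, and it held the centre of 21 regions, or 0.626% (0.410 to 0.955), against 3.55% of all merged regions and 5.71% of shared regions. Regions found in another state alone were alike in this, with 1.03% for SB-431542 and 0.881% and 0.870% for 1 h and 8 h Activin. Of the untreated-only regions, 55.8% were intergenic, 40.3% intronic, 1.94% exonic and 1.28% at a transcript end. The median distance to the nearest start site was 41.95 kb, against 59.8 kb for all merged regions, and 47.6% lay between 5 and 50 kb from one, against 35.1%. SB-431542-only regions and those of 8 h Activin were similar in this, with medians of 37.5 and 46.6 kb and 50.7% and 46.6% in that band, whereas regions found in untreated cells alone with a fold enrichment under 2 had 68.9 kb and 35.5%.

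Of the 21 promoters, 15 belong to protein-coding genes, and at 9 of these 15 no promoter window of the gene held a peak in another list. The rule already excludes a peak of another list over the region itself. The same share was not counted for other promoters, so the 9 describe these genes only. The highest -log10 q was at *Zbtb32*, which encodes a repressor in lymphocytes, where the region at chr7:30592883-30593112 was centred 56 bp upstream with a fold enrichment of 2.1 and a -log10 q of 15.1. The promoter region with the highest fold enrichment, 2.52, was at *Lifr*, the receptor for the cytokine LIF that sustains mouse pluripotent cells, at chr15:7140365-7140625. It was centred 47 bp upstream of a start site, and other promoter windows of *Lifr* held a peak in every list. At *Tnfrsf13b*, a receptor of B cells, the fold enrichment was 2.5, and at *Nlrp5*, a maternal gene of the oocyte, it was 2.40.

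The remaining promoters had values of 2.01 to 2.32. They included *Oas1d* (2.32), a member of the oligoadenylate synthetase family, *Cpne4* (2.24), a calcium-binding copine, *Tmem106a* (2.2), *Zfp36l3* (2.15), an RNA-binding protein of the placenta, *Pacsin2* (2.11), which bends membranes, and *Mep1b* (2.03), a metalloproteinase. *Septin12*, which is needed in sperm, had 2.05 and *Actl7a*, an actin-like gene of the testis, had 2.03.

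Untreated-only regions seldom lay directly beside a peak of another list, yet most were in its vicinity. The nearest peak of any other list was at a median distance of 3519 bp, and 237 regions, or 7.06% (6.24 to 7.98), had one within 1000 bp. Within 5000 bp the share was 64.2% (62.5 to 65.8), and within 50 kb it was 99.7%. Regions found in another state alone had such a peak within 1000 bp in 5.01% (SB-431542), 7.93% (1 h) and 8.66% (8 h) of cases. By list, an untreated-only region had a peak within 1000 bp from the SB-431542 list in 4.50% of cases, and from the 1 h and 8 h lists in 5.03% and 3.93%. Among the untreated-only regions themselves, 76 pairs of neighbours stood within 10 kb of each other and 306 within 50 kb. These pairs were not counted in a comparison set, so they do not show whether the regions are clustered or dispersed.

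Shared regions next to untreated-only regions differed little between states. Each of the 162505 shared regions was ranked by fold enrichment within its list, and the percentile in untreated cells minus that in another state is its shift. For 3751 shared regions within 10 kb of an untreated-only region the median shift was 0.0757 points against SB-431542, with an interval of -0.161 to 0.355 for the median, and 0.0772 over all shared regions. Against 1 h Activin it was 0.0585 (-0.270 to 0.325), with -0.151 over all, and against 8 h Activin 0.396 (0.179 to 0.694), with 0.121 over all. A shift of more than 10 points upward was found in 21.5% of the neighbours against SB-431542, where the value for all shared regions was 19.9%, in 21.8% against 1 h Activin (all, 20.8%) and in 17.6% against 8 h Activin (all, 15.6%). Downward shifts of that size were found in 18.6% (all, 18.8%), 19.1% (all, 19.7%) and 15.4% (all, 15.4%). These shares were near the background in each comparison.

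The regions were not spread over the chromosomes as the merged regions were. Chromosome X held 195 of them, or 5.81% (5.07 to 6.65), against 2.47% of all merged regions, and chromosome 14 held 176, or 5.24% (4.54 to 6.05), against 2.60%. Chromosome 11 held 3.99% (3.38 to 4.71) against 6.13%, and chromosome 2 held 5.90% (5.15 to 6.75) against 8.08%. Some of this was seen in other states, since SB-431542-only regions had 4.33% on chromosome X, 5.23% on chromosome 14 and 2.99% on chromosome 11, whereas on chromosome 2 they had 7.84%. The regions found in untreated cells alone with a fold enrichment under 2 had 3.06% on chromosome X and 2.62% on chromosome 14. The part of copy number in these shares was not tested.

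**Figure D4:**
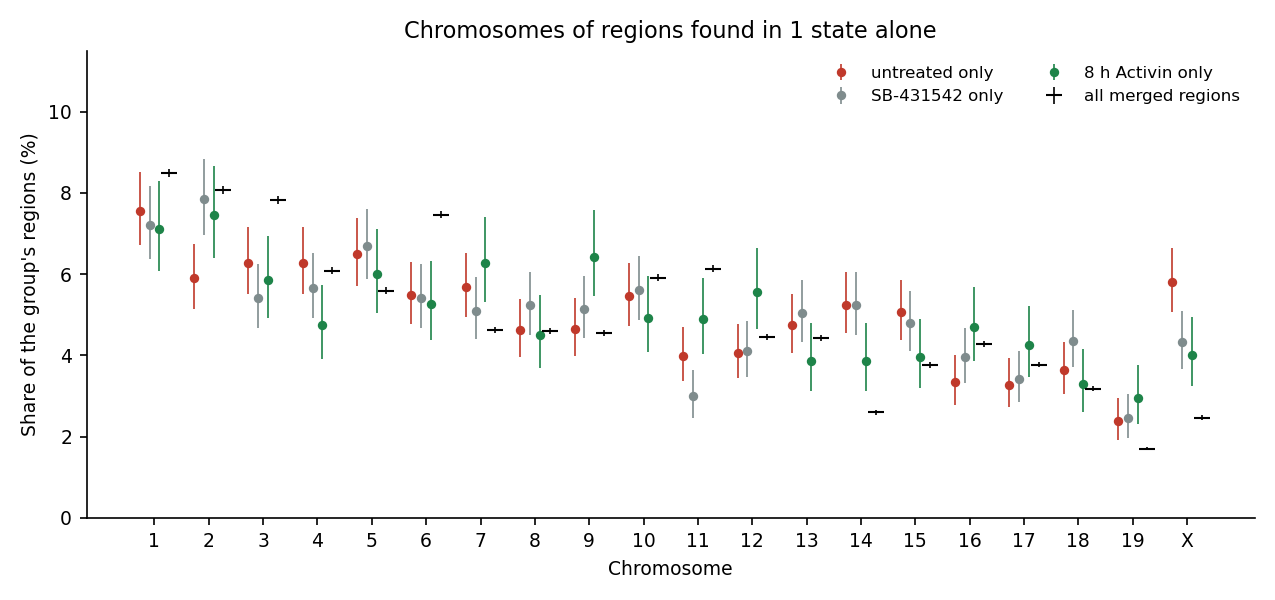
Share of regions on each chromosome for untreated-only regions (red), regions found with SB-431542 or at 8 h Activin alone, and all merged regions (black), with bars for the 95% Wilson interval. Untreated-only regions stand above all merged regions on chromosomes X (5.81% against 2.47%) and 14 (5.24% against 2.60%) and below them on chromosomes 2 and 11.

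The sequence of untreated-only regions was otherwise ordinary. Their median GC content was 47.9%, against 47.1% for all merged regions and 46.4% to 49.5% for regions found in another state alone. Bases marked as repeats made up a median of 13.0%, against 17.8% for all merged regions, and a run of the CA dinucleotide was present in 1.67% (1.29 to 2.16), against 5.65% for all merged regions and 0.939% for regions of like width.

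Of 26180 RefSeq genes, 3276 had an untreated-only region within 50 kb of a start site, or 12.5%. In 2927 of these there was 1 such region, in 325 there were 2, and in 22 there were 3. *Ncald*, the gene for a neuronal calcium sensor, had the most, with 5 regions over 195 kb on chromosome 15 and a fold enrichment of 2.05 to 2.59. Regions near any start site of a gene are counted, so genes with start sites far apart are counted over a longer stretch. *Tmem252* had 4, all within 50.3 kb on chromosome 19, with 2.15 at the lowest. *Nedd4l*, which encodes a ubiquitin ligase known to act on SMAD2 and SMAD3, had 3 with 2.09 to 2.82. On chromosome X, *Plac1*, a gene of the placenta, had 3 with 2.01 to 2.78, and the *Kis2* transcript had 3 with 2.37 to 2.60. The same 3 intergenic regions, from 52694507 to 52760892, are the ones within 50 kb of the microRNA genes *Mir106a*, *Mir18b*, *Mir20b*, *Mir19b-2*, *Mir92-2* and *Mir363*, a cluster of the family that promotes cell division, so these genes count 1 locus several times.

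Gene lists were read against that 12.5%. Over 257 genes on 15 lists, 31 had an untreated-only region within 50 kb, or 12.1%, and no list is set apart by these counts, each of which rests on 4 genes or fewer. Of the same 257 genes, 35 had an SB-431542-only region, or 13.6%, where the share over all genes was 13.1%. For regions of 1 h Activin alone there were 12, or 4.67% (all genes, 2.74%), and for those of 8 h Activin alone 33, or 12.8% (all genes, 7.66%). The members near listed genes are given below because they name places, not because their number is unusual.

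**Figure D5:**
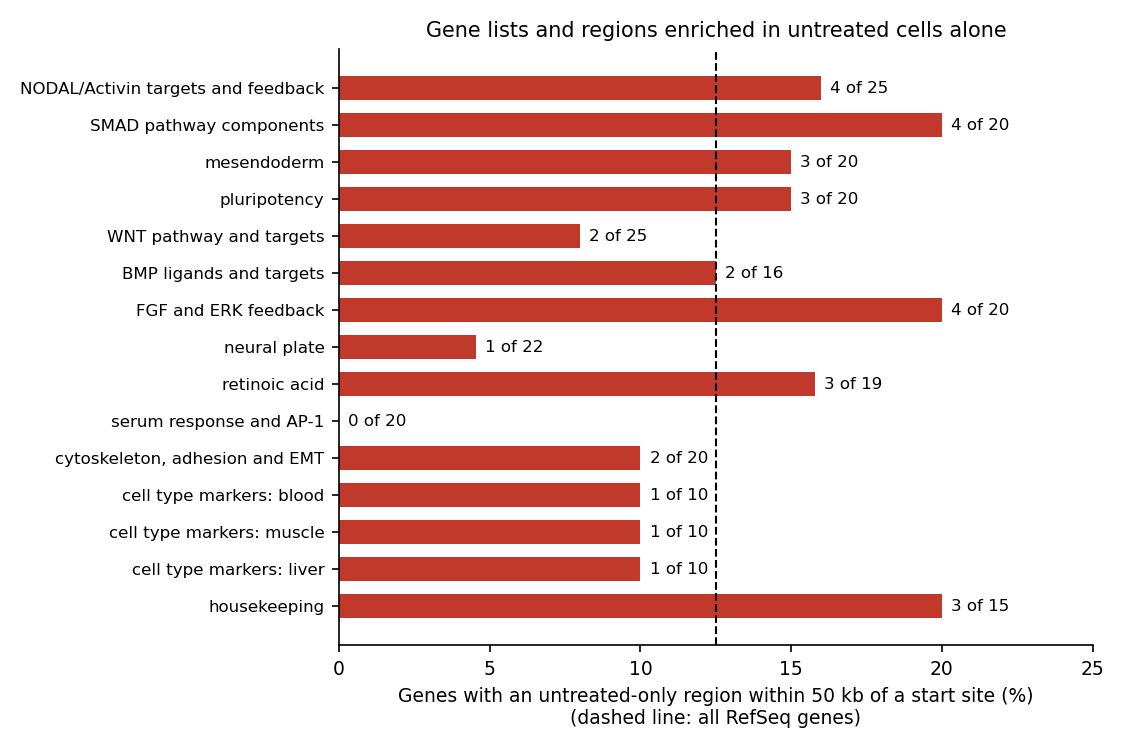
Percentage of the genes on each list with an untreated-only region within 50 kb of a start site, with the count beside each bar. The dashed line marks the 12.5% of all RefSeq genes, and the bars stand from 0% (0 of 20 serum response genes) to 20.0% on both sides of it.

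Among 25 NODAL/Activin targets and feedback genes, 4 had an untreated-only region. Near *Lefty1*, which encodes a secreted NODAL inhibitor, it lay 22.3 kb downstream of the start site in an intron of *Tmem63a*, at chr1:180957204-180957466, with a fold enrichment of 2.22 and a -log10 q of 6.04. Near *Eomes*, a T-box gene of the mesendoderm, it lay 25.3 kb downstream and 2.86 kb upstream of *Golga4*, at chr9:118503326-118503595, with 2.45 and 15.3 on a background of 45.8. *Smad7*, the inhibitory SMAD, had one 14.1 kb upstream with 2.40, and *Ldlrad4*, which restrains SMAD2 phosphorylation, had 2, with 2.43 and 2.19.

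Of 20 SMAD pathway genes, 4 had one. Besides *Smad7* these were *Acvr2a*, a type II Activin receptor (49.8 kb upstream, fold enrichment 2.19), *Smurf1*, a ubiquitin ligase of the pathway (5.598 kb upstream, 2.05), and *Tgif2*, a co-repressor (24.4 kb upstream, 2.08). Of 20 mesendoderm genes there were 3, with *Eomes* joined by 2 secreted BMP antagonists, *Chrd* (28.7 kb downstream, 2.39) and *Nog* (48.9 kb upstream, 2.15). Of 16 BMP genes there were 2, *Nog* again and the ligand *Bmp7*, where the region printed above lies 8.01 kb into the gene with 2.09.

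Of 20 pluripotency genes, 3 had an untreated-only region. In *Tfcp2l1*, a transcription factor of naive pluripotency, it was intronic, 27.4 kb from the start, with a fold enrichment of 2.52 and a -log10 q of 8.67, and it held CACCTG. In *Esrrb*, the orphan nuclear receptor, it was intronic, 21.3 kb from the start, with 2.25 and 6.28, and held both E-box words. Near *Sall4* it lay 43.3 kb away in an intron of *Atp9a*, with 2.05.

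Signalling lists gave few more. Of 20 FGF and ERK feedback genes there were 4, the ligand *Fgf3* (2.16), the receptor *Fgfr1* (2.07), the inhibitor *Spry1* (2.14), all by fold enrichment, and the ERK phosphatase *Dusp6* (-log10 q 6.35), whose region 8.26 kb upstream held the POU octamer and CACCTG. Of 25 WNT genes there were 2, *Wnt8a* (2.46) and the receptor *Fzd10* (2.09). Of 19 retinoic acid genes there were 3, the receptors *Rarg* (2.43) and *Rxrg* (2.04 and 2.01) and the degrading enzyme *Cyp26b1* (2.24), whose region held the FOX word. Of 20 serum response and AP-1 genes, 0 had an untreated-only region within 50 kb, while 6 had an SB-431542-only region, 2 one of 1 h Activin alone and 2 one of 8 h Activin alone, to be read against the shares over all genes given above.

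Of 20 genes of the cytoskeleton, adhesion and epithelial-mesenchymal transition there were 2, *Twist1*, a basic helix-loop-helix factor (4.57 kb upstream, 2.03, background 82.3), and *Fn1*, which encodes fibronectin (22.3 kb upstream, 2.23, background 69.7). Blood, muscle and liver lists had 1 of 10 each, at *Runx1* (2.06), *Myog* (2.89) and *Ttr* (2.19). Of 15 housekeeping genes there were 3, *Tbp* (2.38), *Pgk1* (2.39) and *Gusb* (2.13). The intergenic region 17.0 kb upstream of *Myog*, a muscle regulator, had the highest fold enrichment of any region near a listed gene.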

How the data were processed

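ATAC-seq peaks of 4 states were analysed. Per the paper's methods and the labels, the authors used cutadapt 1.9.1 for trimming, BWA 0.6.2 for alignment to mm10 and Picard to merge the replicates of each state, after which MACS2 2.1.1.20160309 called broad peaks. The deposited lists give a fold enrichment (a ratio) and -log10 p and -log10 q values per peak, averaged by the caller over the peak. They hold no read counts, and 1 merged list per state allows no test.

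Peaks were merged at an overlap of 1 bp with Python 3.11.15. Regions were annotated by their centre with 45756 curated RefSeq transcripts of GRCm38, and words were sought as exact matches on both strands in that sequence. Like-width regions have a width between the quartiles of the untreated-only regions, which are themselves compared at every width. Named regions are the 20 highest by -log10 q, the 10 highest by fold enrichment, coding promoters, the 10 genes with most regions and members of gene lists. Regions, 21 words and 15 gene lists were chosen with earlier results of these data known, and 10 further words after the sequences had been seen. The merging, background estimate and word search were tested on simulated data. Of 22 serum response genes, *Ctgf* and *Cyr61* matched no RefSeq symbol. A few items are not reported here.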

Additional observations from a re-analysis of the deposited data

How the results depend on the processing

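The number of untreated-only regions depends on the limits. It was 13620, 338 and 27 at a minimum fold enrichment of 1.5, 2.5 and 3, 6205 where a peak counted as shared only if others covered 50% of it, and 8889 when peaks under a -log10 q of 5 were dropped from all lists. Merging across 200 or 1000 bp, lists of equal length and assembled chromosomes gave 3095 to 3682. At a fold enrichment of 3, 0% of the 27 regions lay over a promoter. A peak of another list lay within 500 bp of 0.268%, within 5000 bp of 64.2% and, for regions with -log10 q of at least 10, within 1000 bp of 8.18%. CAGCTG was held by 25.2% in the central 300 bp. At a fold enrichment of 2.5 (added after seeing the data) the shares were 39.9% for CACCTG, 29.9% for CAGCTG, 6.81% for the octamer, 6.51% for its variant, 10.4% for FOX, 6.21% for AAGGTCA and 3.85% for TEAD. With -log10 q of at least 5 and the central 300 bp (also added) they were 28.7% for CACCTG, 23.4% for CAGCTG, 6.17% for FOX, 8.40% for AAGGTCA and 4.83% for TCF/LEF. Over whole regions, all merged regions, which are wider, held every one of these words more often than the untreated-only regions (43.3% for CACCTG). The median shift against 1 h Activin was -0.967 within 2 kb and 0.347 by -log10 q. Listed genes with a region numbered 8 within 10 kb and 72 within 100 kb. Within 2 kb the shift against SB-431542 was -0.144, so that 2 of 67 alternative values changed sign, each from a value whose interval held 0. Of the 67, 26 fell outside the interval of the main value or, for counts, differed from it by over 1.5 times. No paired analysis was possible because no result comes from a test, and leaving out a replicate was not possible because each list merges them. The causes of these changes were not tested.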

Other observations

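Other E-box words differed less between the sets than CACCTG and CAGCTG. These 8 words were searched after the sequences had been seen. CATCTG was held by 29.1% of untreated-only regions, against 21.3% to 22.1% of those found in another state alone, and CAAATG by 23.3% against 14.9% to 20.0%. CACATG was held by 23.2% against 20.0% to 23.4%, CACTTG by 18.7% against 14.4% to 17.5%, CAACTG by 17.3% against 12.7% to 15.4%, CATATG by 9.80% against 6.85% to 7.11%, CAATTG by 4.65% against 3.24% to 5.68% and CACGTG by 4.05% against 2.54% to 2.83%. The CACCTG matches of untreated-only regions were followed by C in 39.7% of 1458 cases, against 28.8% to 33.3% in regions found in another state alone and 31.5% in regions of like width.

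Of 3357 untreated-only regions, 5 overlapped an enhancer that RefSeq annotates from reporter experiments. So did 25 of 35993 regions of like width and 619 of all 287329 merged regions, which are wider. The 5 are named here after their values were seen. One lay 24.4 kb upstream of *Tgif2* in an enhancer active in somites, with a fold enrichment of 2.08. One lay 38.9 kb from *Shox2*, a homeobox gene, in an enhancer of hindbrain and limbs (2.08), and one in an intron of *Bmp5*, which encodes a BMP ligand, in an enhancer of nasal cartilage, limbs and ribs (2.00). One 123 kb from *Tbx2*, a T-box gene, lay in a hindlimb enhancer (2.00). The one with the highest value, 2.71, lay on chromosome 13 in an enhancer of midbrain and forebrain and held CACCTG.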
